A study of Mus musculus with 23 samples.

Results

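S100 proteins are small calcium-binding proteins, and their genes were followed here in injured mouse spinal cord. Members were all genes whose symbol starts with S100 in the deposited count tables of 2 RNA fractions, with counts summed per gene over all 6 groups. Of 9363 genes in the table of precipitated RNA (HA), 9 were S100 genes: S100b, S100a6, S100a11, S100a16, S100a10, S100a1, S100a13, S100a3 and S100a4. Of 4898 genes in the table of unprecipitated RNA (FT, flow-through), 5 were, namely S100b, S100a6, S100a16, S100a11 and S100a10. Over both tables this came to 9 of 9480 genes. The GENCODE mouse annotation has 17 protein-coding S100 genes, and the other 8, among them S100a8 and S100a9, are not analysed here.

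All mice carried the mGFAP-Cre-RiboTag system, in which Cre driven by a mouse Gfap promoter tags ribosomes with hemagglutinin, so that RNA on tagged ribosomes can be precipitated, and the labels give the genotype as wild type. All had a severe crush of the spinal cord at thoracic level 10, and the central 3 mm was taken 14 days later. The groups were injury alone (SCI only; 4 HA and 4 FT libraries), injury and a hydrogel labelled CT, a term the labels do not explain (EmGel in the deposited column names; 3 HA and 4 FT), and injury and a hydrogel with growth factors (3 HA and 5 FT), with depots placed 2 days after injury. The series title names the factors FGF and EGF, while the deposited column names say BDNF and NT3, so they are called growth factors here. The title numbers of the SCI only libraries lie between 9596 and 9935 and those of both hydrogel groups between 1645 and 1762, so a hydrogel and a difference between these series of numbers cannot be told apart.

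S100 proteins pair into dimers, and each subunit carries a calcium-binding loop of the common EF-hand type next to a variant loop of the family's own. On binding calcium most of them open a surface that grips a partner protein, such as an annexin, and some are released and bind cell-surface receptors. In the nervous system S100b is a long-used marker of astrocytes and is also made by some oligodendrocyte lineage cells, while S100a6 (calcyclin) is known from subsets of astrocytes and from dividing or reactive cells. S100a10 is the exception, a subunit that holds annexin A2 without needing calcium.

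The common EF-hand loop is shown because it is what the members share by name, and it is also where S100a10 departs from the others. Each line, for 8 members, gives the 12 codons of the loop from the GENCODE coding sequence (mm10), 5′ to 3′, with codons 1, 3, 5 and 12 in capitals, positions whose side chains bind calcium in a common EF-hand.
S100a6: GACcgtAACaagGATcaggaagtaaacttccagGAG
S100a11: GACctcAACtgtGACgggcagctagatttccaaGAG
S100a16: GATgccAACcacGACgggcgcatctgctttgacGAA
S100a10: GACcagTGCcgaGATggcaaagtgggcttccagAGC
S100a1: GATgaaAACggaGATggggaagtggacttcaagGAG
S100a13: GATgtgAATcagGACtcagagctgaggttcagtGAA
S100a3: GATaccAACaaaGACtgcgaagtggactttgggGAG
S100a4: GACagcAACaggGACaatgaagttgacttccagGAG
The first codon reads as aspartate in all 8. The last codon reads as glutamate in 7 of 8, and S100a10 has AGC, a serine codon, in its place. The loop of S100a6 lies in a coding exon at chr3:90614233-90614268 on the plus strand. Over the whole coding sequence the 36 pairs of members shared 41.4% to 63.7% of aligned bases, highest for S100a4 with S100a6 and lowest for S100a13 with S100a3, so no pair was near-identical.

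Depth set how much could be seen. HA libraries held 7940025 to 24337017 counts and FT libraries 19607 to 5432938. Protein-coding genes without Lars2 made up 0.9% to 46.1% of the counts in HA and 1.2% to 79.9% in FT, where the smallest library had 2251 such counts. The HA fraction was higher than FT for 10 of 14 tested astrocyte markers and lower for 8 of 9 microglia and macrophage markers and 6 of 8 neuron markers. Markers of oligodendrocyte progenitors (6 of 7) and oligodendrocytes (4 of 11) were also higher in HA, and their part in the S100 differences between fractions was not tested. Of all 3295 genes tested, 20.6% passed in either direction and 13.2% as higher (adjusted p under 0.05 in the edgeR test used below). Levels below are CPM, a count relative to library size, scaled by the trimmed mean of M-values (TMM), either over the 10 HA libraries, over the 13 FT libraries, or over 20 libraries of both fractions, and values on different scalings are not compared.

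S100b was the most abundant S100 transcript in HA at every treatment. Per kilobase of transcript it stood at 372.4 ± 96.0 CPM (SD, n = 10 HA libraries), with a lowest value of 279.5, a median of 350.0 and a highest of 606.2. S100a6 followed at 164.9 ± 90.1, with a lowest value of 30.1, a median of 146.5 and a highest of 317.4. S100b lay above S100a6, and S100a6 above S100a11, in 10 of 10 libraries. Among protein-coding genes without Lars2, S100b ranked between 5 and 14 in each HA library and took 0.646% to 1.03% of their counts.

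The remaining 7 members were far lower per kilobase, and their order was less fixed. S100a11, which binds annexins, had 22.5 ± 14.1 CPM per kilobase, and S100a16, a widely expressed member, had 15.3 ± 11.4. S100a11 was above S100a16 in 8 of 10 libraries, and S100a16 above S100a10 in 9 of 10. S100a10, S100a1 and S100a13 had means of 9.07, 7.34 and 4.87, with S100a10 above S100a1 in 6 of 10 libraries and S100a1 above S100a13 in 7 of 10. S100a3 (3.75 ± 8.62) and S100a4 (3.10 ± 3.30) came last. S100a3 had the higher mean but was above S100a4 in 2 of 10 libraries, since 2 libraries carried most of its counts.

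**Figure D1:**
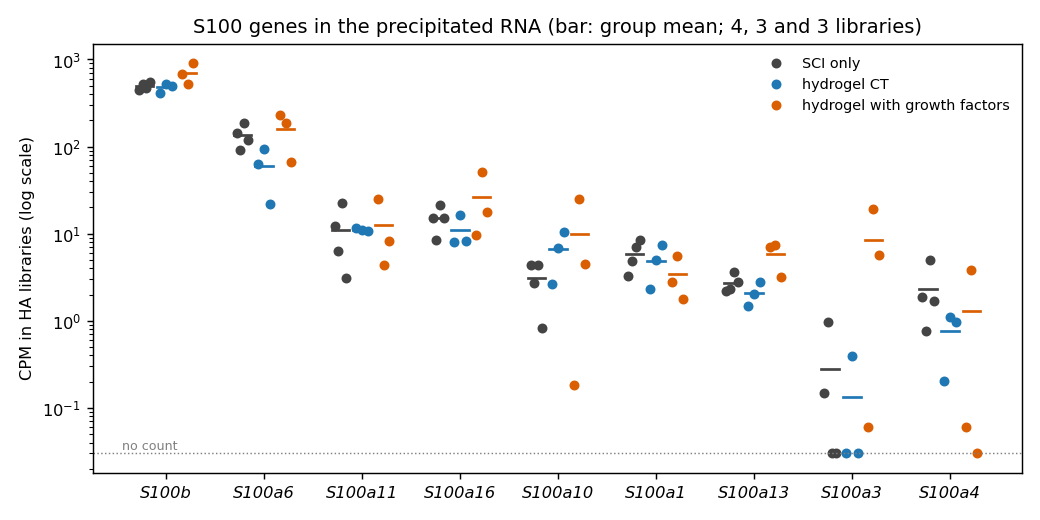
CPM of the 9 S100 genes in each HA library (log axis, scaled over the 10 HA libraries and not per kilobase), by treatment, with group means as bars and libraries without a count on the dotted line. S100b sits between 414.8 and 899.6 CPM and S100a6 between 22.0 and 232.0, while S100a3 and S100a4 reach 0 counts in some libraries.

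The first comparison asked which S100 transcripts were richer on the tagged ribosomes than in the remaining RNA. It used the 20 libraries of the 10 title numbers with both fractions. S100a6, S100b, S100a16 and S100a11 were higher in HA, that is 4 of the 5 members tested, against a background of 20.6% of all 3295 genes tested that passed in either direction and 13.2% that passed as higher (edgeR quasi-likelihood test, Benjamini-Hochberg adjusted p under 0.05). S100a10 did not pass. The filter asked for a minimum CPM in 10 of the 20 libraries. S100b reached that in 10 of 10 FT libraries, but S100a6 in 9, S100a16 in 8, S100a11 in 6 and S100a10 in 4, so these 4 entered the fit with the help of the HA libraries, where they are high, and the count of 4 in 5 is no support for a rise of the family. The median of all genes in this comparison was 0.28 on the log2 scale. When the libraries were rescaled to put it at 0, a setting chosen after seeing the data, the same 4 members passed with smaller differences, beside 17.7% of all genes. Within the 4 SCI only numbers alone S100a6 was the 1 member that passed, where 11.7% of all genes did. Within the 6 hydrogel numbers S100a6 and S100b passed, beside 9.81% of all genes.

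S100a6 showed the widest gap between fractions. In HA its level over the 20 libraries scaled together was 248.0, 183.1, 346.1 and 234.1 CPM in the SCI only libraries, 105.6, 153.9 and 35.7 with hydrogel CT, and 354.0, 339.3 and 109.4 with growth factors. In FT it was 34.8, 17.1, 29.7 and 8.15 in SCI only, 3.71, 4.43 and 4.51 with hydrogel CT, and 13.8, 15.3 and 3.39 with growth factors. On this scaling every HA library lay above every FT library, as for 1.70% of the 3295 genes tested. The lowest HA value (35.7) and the highest FT value (34.8) nearly met. As a share of each library's protein-coding counts without Lars2 the fractions overlapped, with HA library 1762 at 0.0295% and FT library 9596 at 0.0411%. The log2 difference was 4.07 (SE 0.43, 95% interval 3.20 to 4.95, edgeR adjusted p = 1.71e-08), a fold of 16.8, and 3.79 with the median gene at 0. In 6 of the 10 FT libraries S100a6 rested on 3 counts or fewer.

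S100b was high in both fractions. Its HA levels were 766.3, 1038.3, 862.5 and 1065.1 CPM in SCI only, 689.6, 861.2 and 807.3 with hydrogel CT, and 1051.1, 962.5 and 1473.0 with growth factors. Its FT levels were 449.2, 528.2, 456.5 and 576.1 in SCI only, 456.4, 635.8 and 274.8 with hydrogel CT, and 355.3, 145.6 and 31.9 with growth factors. On this scaling the fractions did not overlap, and HA was higher in 10 of 10 title numbers. As a share of each library's protein-coding counts without Lars2 they did overlap. FT libraries 9935 (0.788%) and 1759 (0.732%) lay above HA library 1724 (0.646%), though the 2 fractions list different genes. The mean was 957.7 ± 221.6 CPM in HA and 391.0 ± 191.2 in FT (SD, n = 10 each), with a log2 difference of 1.38 (SE 0.37, edgeR adjusted p = 0.00615), or 1.10 (adjusted p = 0.0333) with the median gene at 0. Of the genes tested, 1.70% had every HA library above every FT library. S100b overlaps Dip2a on the opposite strand, and the strand setting of the counting is not given in the sources used here. Dip2a itself had 0 to 39 counts in HA, against 1952 to 38721 for S100b.

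S100a16 and S100a11 were also higher in HA in 10 of 10 title numbers, with overlapping ranges. S100a16 ran from 13.3 to 94.5 CPM in HA (median 26.6) and from 0 to 19.0 in FT (median 8.03), a log2 difference of 1.98 (SE 0.53, adjusted p = 0.00592), or 1.69 (adjusted p = 0.0213) with the median gene at 0. S100a11 ran from 6.0 to 41.0 CPM in HA (median 17.5) and from 0 to 13.8 in FT (median 3.15), a log2 difference of 2.22 (SE 0.60, adjusted p = 0.00693), or 1.93 (adjusted p = 0.0211) with the median gene at 0. S100a10 ran from 0.279 to 46.5 CPM in HA and from 0 to 9.23 in FT and was higher in HA in 8 of 10 title numbers. Its log2 difference of 1.60 (SE 0.73, 95% interval 0.12 to 3.09, adjusted p = 0.121) did not pass, nor did the 1.32 (adjusted p = 0.228) with the median gene at 0. These 3 genes rested on few FT reads: 3 counts or fewer in 7 of 10 FT libraries for S100a16 and for S100a11, and in 8 of 10 for S100a10. In the FT libraries without a count, 3 counts, the limit that a count of 0 allows, correspond to 6.65 to 23 CPM, a limit that covers counting error only.

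**Figure D2:**
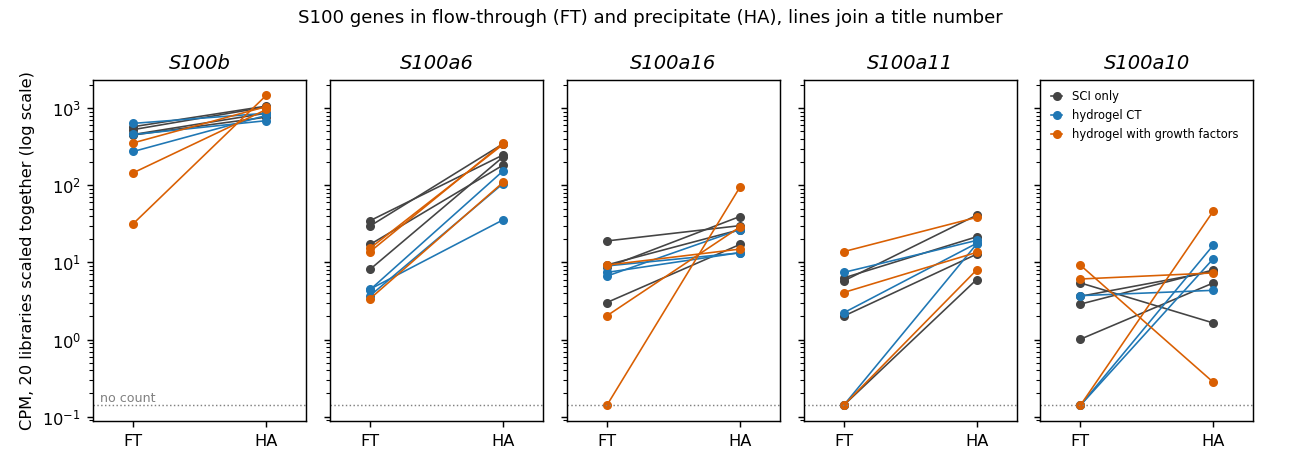
CPM of the 5 S100 genes listed in both fractions (log axis, 20 libraries scaled together), with lines joining the FT and HA libraries of a title number and libraries without a count on the dotted line. Every line rises for S100b, S100a6, S100a16 and S100a11, and 8 of 10 rise for S100a10.

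Within a single treatment S100a6 was higher in HA each time. The log2 difference was 3.44 (SE 0.60, adjusted p = 0.000489) in SCI only, 4.53 (SE 0.85, adjusted p = 0.00296) with hydrogel CT and 5.00 (SE 0.83, adjusted p = 0.000261) with growth factors. The backgrounds of genes called were 5.58%, 2.19% and 12.9% of the 3295 tested in either direction, and 2.85%, 1.21% and 8.71% as higher. The medians of all genes were 0.14, 0.40 and 0.49, and with each of them put at 0 S100a6 was at 3.30, 4.13 and 4.51 and passed in all 3 (adjusted p = 0.000784, 0.00423 and 0.000875). The FT side of these tests rested on 156 counts over 4 libraries in SCI only. It rested on 4 counts over 3 libraries with hydrogel CT and 10 over 3 with growth factors. In the hydrogel CT group 1 number decided the call: without 1759 the difference was 4.07 (adjusted p = 0.0959). S100a6 was the 1 member of 5 that passed in SCI only and with hydrogel CT.

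With growth factors S100b (2.73, SE 0.61, adjusted p = 0.00374) and S100a16 (3.75, SE 1.06, adjusted p = 0.0166) passed as well, 3 of 5 in all. The background was 12.9% of all genes in either direction and 8.71% as higher. S100a6 and S100a16 entered this fit too with the help of the HA libraries. With the median gene at 0 S100b and S100a16 were at 2.25 (adjusted p = 0.0153) and 3.26 (adjusted p = 0.0432). S100a16 had 5 counts over the 3 FT libraries with growth factors. Its call was lost without number 1687 (2.51, adjusted p = 0.163) or 1732 (3.33, adjusted p = 0.0868). For S100b the difference was 0.89 (SE 0.50) in SCI only and 0.78 (SE 0.57) with hydrogel CT, or 0.76 and 0.38 with the median gene at 0, and neither passed. The FT level of S100b in number 1732, 31.9 CPM, was the lowest of all. The difference between treatments in the HA to FT gap was tested directly, and 0 of 5 members passed in any of the 3 pairs of treatments, with 0 to 2 of 3295 genes passing (0.00%, 0.0607% and 0.00%). At an unadjusted p under 0.05, S100b was the 1 member of 5 reaching it, with growth factors against SCI only (1.84, SE 0.77, unadjusted p = 0.0218, adjusted p = 0.274) and against hydrogel CT (1.95, SE 0.82, unadjusted p = 0.0229, adjusted p = 0.417). Of all genes 13.2% and 10.3% reached it in these 2 pairs and 4.28% for hydrogel CT against SCI only, so 1 of 5 is near the background. The medians of all genes were 0.43, 0.07 and 0.33 in the same order, and with the median gene at 0 in each treatment S100b was at 1.49 and 1.86 (adjusted p = 0.422 and 0.440). DESeq2 also called 0 of 5 in all 3, where it called 2.30%, 0.822% and 0.00% of all genes.

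**Figure D3:**
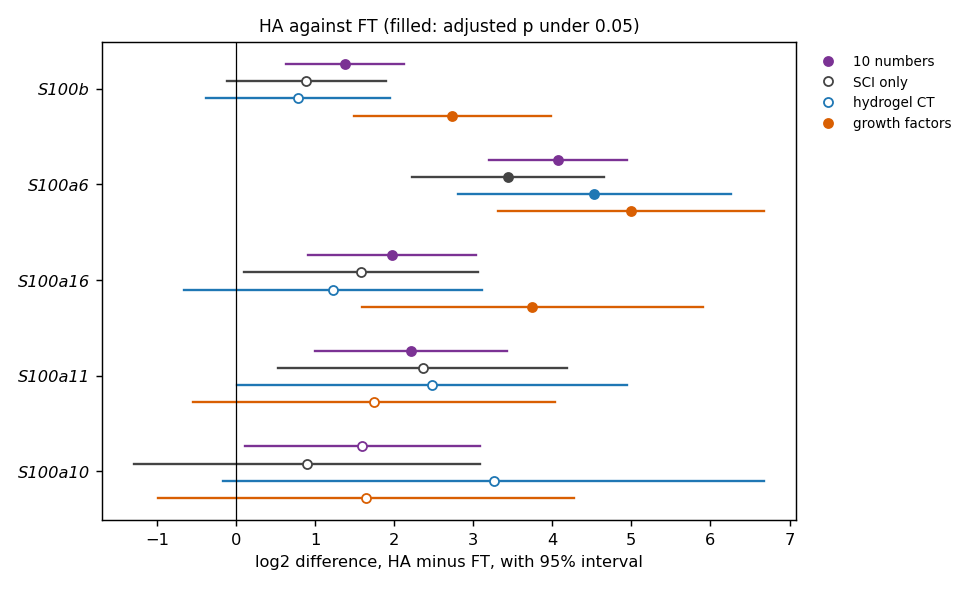
Log2 differences between HA and FT with 95% intervals for the 5 shared members, over the 10 title numbers and within each treatment, filled where the adjusted p was under 0.05. S100a6 is filled in all 4 comparisons and S100a10 in none.

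Set against S100b in the same library, S100a6 still differed between the fractions, a comparison chosen after the levels were seen and free of library scaling. S100a6 counts came to 4.42% to 40.1% of the S100b counts in HA libraries (median 19.9%) and to 0.697% to 10.6% in FT libraries (median 3.57%). The ranges overlap, because the 2 HA libraries 1762 (4.42%) and 1732 (7.42%) fell among the FT values. The log2 ratio was higher in HA by 2.34 (SD 1.04 in HA and 1.36 in FT, two-sided exact permutation test p = 0.000628, 0.00251 adjusted over 4 ratios). A small constant was added to each count before any of these log2 ratios was taken, since some FT counts were 0. In shallow FT libraries such as 1687, with 19 S100b counts, the constant weighs on the ratio. For S100a16, S100a11 and S100a10 the same test gave log2 differences of 0.18, 0.36 and -0.90, with exact permutation p of 0.671, 0.578 and 0.328. A shift relative to S100b was not detectable for these 3 genes at their FT depth. The permutations ran over all libraries of both fractions and left treatment and title number out.

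**Figure D4:**
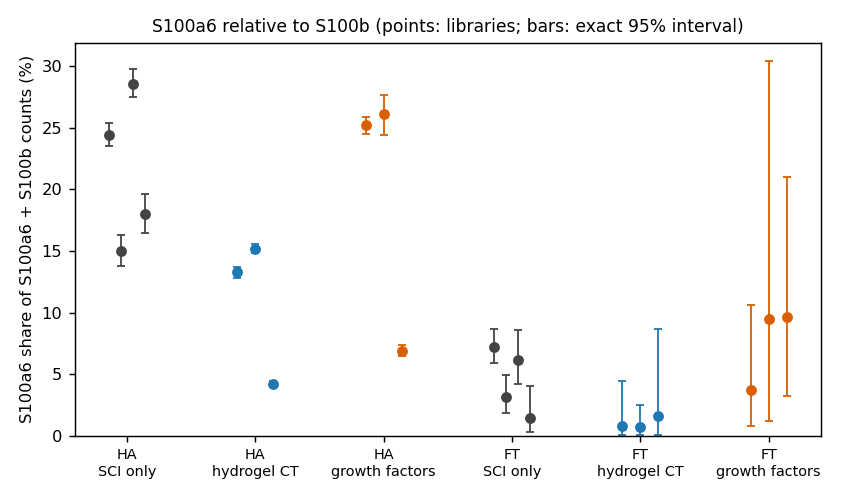
Share of S100a6 in the summed S100a6 and S100b counts of each library (percent, from 0), by fraction and treatment, with exact 95% binomial intervals that cover counting error only. HA libraries lie between 4.23% and 28.6%, and FT libraries between 0.692% and 9.62% with wide intervals where counts are few.

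The second set of comparisons asked whether a hydrogel, with or without growth factors, changed S100 transcripts in HA. By the edgeR test 0 of 9 members passed for hydrogel CT against SCI only, growth factors against SCI only, or growth factors against hydrogel CT, where 0.195%, 0.436% and 0.0902% of 6654 genes passed. At an unadjusted p under 0.05 there were 0, 1 and 2 of 9 members, where 12.7%, 21.0% and 13.3% of all genes reached it. DESeq2 called 0, 0 and 1 members and 4.91%, 12.0% and 5.03% of the genes it gave an adjusted p. These counts are near the background. The medians of all genes were 0.27, 0.12 and -0.14 on the log2 scale. The groups share libraries across these 3 comparisons. They also differed in composition. The SCI only libraries had 0.9% to 3.92% of their counts in protein-coding genes without Lars2. For hydrogel CT this share ran from 26.3% to 46.1%, above every library of the other groups, and for growth factors from 3.56% to 14.5%. The part of this share in the comparisons was not tested. In bulk RNA such as this, fewer cells of a type and less RNA per cell cannot be told apart.

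S100b stood at 493.4 ± 45.7 CPM (SD, n = 4) in SCI only, 480.5 ± 59.0 (n = 3) with hydrogel CT and 703.6 ± 189.0 (n = 3) with growth factors, scaled over the HA libraries. The log2 difference was -0.04 (95% interval -0.82 to 0.74) for hydrogel CT against SCI only. For growth factors it was 0.51 (95% interval -0.26 to 1.29) against SCI only and 0.55 (95% interval -0.28 to 1.38) against hydrogel CT, and none of the 3 passed (edgeR adjusted p = 0.980, 0.448 and 0.563). Gfap, the gene whose promoter drives the Cre, had 1040.0 ± 294.4, 827.2 ± 178.3 and 1291.1 ± 426.9 CPM in the same 3 groups.

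S100a6 varied more. It had 143.2, 91.0, 188.6 and 119.7 CPM in SCI only, 63.5, 94.5 and 22.0 with hydrogel CT, and 232.0, 184.2 and 66.8 with growth factors. The SCI only and hydrogel CT values meet at 91.0 and 94.5, and library 1762 was lowest. The log2 difference was -1.18 (SE 0.57, adjusted p = 0.411) for hydrogel CT against SCI only and 1.42 (SE 0.61, unadjusted p = 0.0304, adjusted p = 0.329) for growth factors against hydrogel CT, and neither passed. Its rank among protein-coding genes without Lars2 was 22 to 46 in SCI only and 69 to 637 with hydrogel CT. The growth factor libraries placed it between 39 and 232.

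S100a3, a cysteine-rich member best known from hair, gave the largest fitted values. With growth factors it had 1, 76 and 67 counts, with hydrogel CT 0, 19 and 0, and in SCI only 2, 5, 0 and 0. The counts thus sat in libraries 1687 and 1732, and library 1685 of the same group had 1. The log2 difference was 5.94 for growth factors against hydrogel CT (SE 2.20, 95% interval 1.32 to 10.56, edgeR adjusted p = 0.270) and 4.93 against SCI only (SE 1.94, adjusted p = 0.169). DESeq2 called the first of these (6.27, adjusted p = 0.0364). The authors' deposited table gives log2 fold changes of -5.757 for the reverse contrast and 4.929, with false discovery rates of 0.1586 and 0.1012. The counted transcripts of S100a3 and S100a4 both overlap the annotated gene Gm42674 on their own strand, so reads of these genes may not have been told apart.

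S100a13, which takes part in release of FGF1 from cells, had 2.74 ± 0.677 CPM in SCI only, 2.11 ± 0.667 with hydrogel CT and 5.84 ± 2.32 with growth factors, and its 3 comparisons had adjusted p of 0.898, 0.532 and 0.554. For S100a1, S100a10, S100a11, S100a16 and S100a4 the log2 differences ranged from -1.60 to 1.66 over the 3 comparisons, with adjusted p of 0.420 or more.

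**Figure D5:**
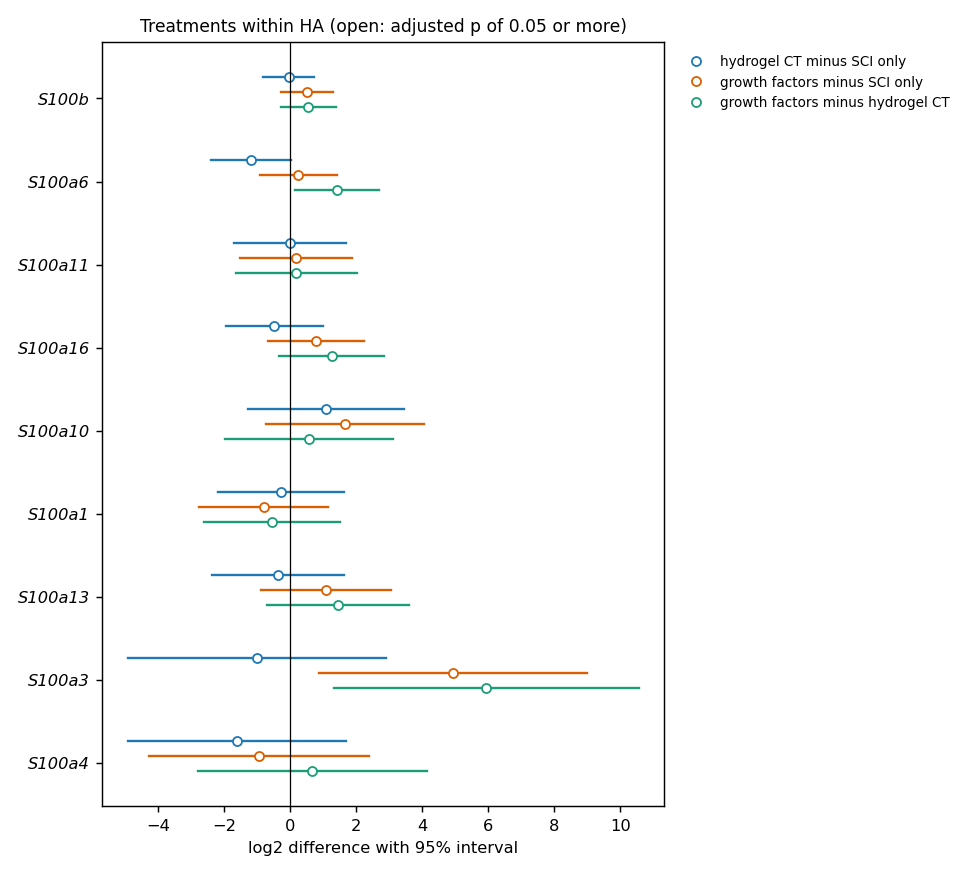
Log2 differences between treatments within HA with 95% intervals for the 9 S100 genes, all open because none had an edgeR adjusted p under 0.05. The intervals are narrowest for S100b and widest for S100a3, whose values for growth factors are 4.93 against SCI only and 5.94 against hydrogel CT.

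Within FT only S100b passed the filter on low counts, so 1 of 5 members was tested among 610 genes. It had 953.8, 1189.1, 1072.6 and 1477.7 CPM in SCI only, 507.2, 726.9, 863.6 and 464.8 with hydrogel CT, and 371.0, 631.9, 343.7, 821.7 and 63.2 with growth factors, scaled over the FT libraries. All 4 SCI only libraries were above all 9 hydrogel libraries. The share of the 610 genes separated in this way was not counted, so the separation is not read as particular to S100b. The SCI only libraries also have the highest total counts (2241603 to 5432938, against 19607 to 145365). In protein-coding counts without Lars2 the groups overlapped. The SCI only libraries held 255152, 93706, 96114 and 26899 such counts. Library 1732, a growth factor library with the lowest S100b level, held 115730, and hydrogel CT library 1759 held 39203. The remaining hydrogel libraries lay between 2251 and 21916. The log2 differences were -0.87 (SE 0.68, adjusted p = 0.549) for hydrogel CT and -1.40 (SE 0.65, unadjusted p = 0.0404, adjusted p = 0.239) for growth factors against SCI only, and -0.53 (SE 0.65, adjusted p = 0.956) between the hydrogel groups. None passed, against backgrounds of 3.11%, 3.77% and 0.00%, and 114 of the 610 genes had an unadjusted p under 0.05 for growth factors against SCI only. The hydrogel libraries gave 10 to 287 counts of S100b and the SCI only libraries 212 to 1356. In FT counts simulated at these total counts, unchanged genes came out lower with hydrogel CT than in SCI only. The simulation gave all libraries the same composition apart from the changed genes, unlike the data, so it cannot decide the part of depth here. In the data the medians of all genes were -0.01, 0.01 and -0.02. The part of depth in these differences was not tested.

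S100a6 in FT had 105, 17, 31 and 3 counts in SCI only, 1, 1, 2 and 1 with hydrogel CT, and 0, 3, 2, 1 and 5 with growth factors. With only the SCI only and hydrogel CT groups in the fit it passed the filter. It was then called lower with hydrogel CT (-2.37, SE 0.77, edgeR adjusted p = 0.0356), where 13.8% of the 1517 genes tested were called. With all 13 libraries and no filter the value was -2.49 (SE 1.04, adjusted p = 0.134). The authors' deposited table gives -2.542 with a false discovery rate of 0.03295 for this contrast. With 5 counts over 4 hydrogel CT libraries, the call rests on very few reads. In the same FT libraries the 10 listed markers of microglia and macrophages together reached 7164.7 to 17814.0 CPM under SCI only. The hydrogel CT libraries had 160.2 to 3841.4 and the growth factor libraries 107.8 to 2114.7 for this sum. The markers did not all move one way: of 6 tested for hydrogel CT against SCI only, C1qa was lower (-5.81, SE 0.97, adjusted p = 0.000663) and 5 did not pass, among them Cx3cr1 at 2.99 (SE 0.95, adjusted p = 0.0789). For growth factors against SCI only 3 of 6 were lower and Cx3cr1 was higher (3.51, SE 0.95, adjusted p = 0.0376). In these 2 comparisons 3.11% and 3.77% of the 610 genes tested passed. The part of these markers in the S100a6 difference was not tested.

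Partners and other calcium sensors were taken from lists. Between HA and FT 20.6% of all 3295 genes tested passed, and the counts of both lists below lie near that share. Of 25 genes for S100 partners and receptors, 8 were tested between HA and FT, 1 was higher, 1 was lower and 6 did not pass, with a median log2 difference of 0.31 beside 0.28 for all genes. Anxa5, an annexin that binds phosphatidylserine, was higher (1.10, SE 0.38, adjusted p = 0.0334), and Iqgap1, a scaffold that S100 proteins bind, was lower (-2.05, SE 0.56, adjusted p = 0.00692). Ahnak, the large protein held by S100a10 and annexin A2, was at 0.50 (SE 0.56, adjusted p = 0.576), and Cacybp, the calcyclin-binding protein, at 0.75 (SE 0.53, adjusted p = 0.350). Anxa2 and the receptor gene Ager are not analysed here. Within HA 0 of 12 tested partners passed in any of the 3 comparisons of treatments, where 0.195%, 0.436% and 0.0902% of 6654 genes did.

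Of 37 EF-hand genes outside the S100 family, 15 were tested between HA and FT, 1 was higher, 3 were lower and 11 did not pass, with a median log2 difference of -0.11 beside 0.28 for all genes. The number called is near the 20.6% of all genes that passed. The higher one was Pdcd6 (1.49, SE 0.52, adjusted p = 0.0380). The lower ones were Vsnl1 (-4.17, SE 0.75, adjusted p = 9.35e-05) and Calb2 (-3.90, SE 0.84, adjusted p = 0.000733), which are calcium sensors of neurons, and Calm2 (-1.41, SE 0.32, adjusted p = 0.00114), a calmodulin gene.

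In the genome 8 of the 9 listed members lie on chromosome 3 and S100b on chromosome 10. S100a1 and S100a13 are transcribed away from each other with starts 43 bases apart, and their 300-base promoter windows share 204 bases, yet their levels over the 10 HA libraries had a Pearson r of 0.09. S100a6 and S100b, the 2 most abundant, had r of 0.05. The genes most like S100b over the same libraries were Psmb1 (r = 0.93), Gadd45g, Scd2, Cxcl16 and Ankrd28, and those most like S100a6 were Polr2l (r = 0.94), Tagln2, Eif4h, Gm10073 and Sart3, among 6653 genes. These correlations are descriptions over libraries that share scaling and differ in depth, so no p is given.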

How the data were processed

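The members and gene lists were chosen with earlier results of these data known. Per the labels' protocols, cDNA was amplified from 5 ng of RNA with the NuGEN Ovation system and sequenced in paired-end libraries. The submitters' processing notes name CASAVA 1.8.2, build mm10 and edgeR. The aligner, counter and strand setting are not given in the sources used. The authors deposited whole-number counts per transcript and, per the file headers, log2 fold changes, p-values and false discovery rates. A further 45 columns of per-sample values were not used. Rows without a gene symbol (0.00272% to 0.319% of a library's counts) were left out.

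Counts were summed per symbol and tested with edgeR 4.0.16 (quasi-likelihood, TMM, filterByExpr with a minimum count of 10, Benjamini-Hochberg, threshold 0.05) in R 4.3.3. Fits between fractions had terms for treatment and fraction, and those within a fraction had group means. The main fits between fractions had no block for the title number. For fits between fractions, filterByExpr was run by the smallest of the 6 groups, by the design matrix and by fraction. The form by fraction was adopted after members' results had been seen under the others, because it reproduced an earlier processing of these data, and the closing section gives all 3. The tests were checked on simulated counts. Between fractions it showed a shift of all genes under TMM and, with it, unchanged genes called at more than the nominal rate. Rescaling to a median of 0 removed the shift and most of the false calls, so both values are given. Within FT most changed genes were missed, and unchanged genes came out lower with hydrogel CT. Simulated libraries were drawn at the total counts of the real ones but shared the same composition, which the real ones did not. DESeq2 1.42.0, other filters and scalings, and leaving out libraries were alternatives. The labels do not say that title numbers are separate animals, so the spread behind each p-value is that of these libraries and may be technical. Intervals use the SE and the fit's degrees of freedom. Exact permutation tests used scipy 1.17.1. Positions and loops come from GENCODE M21 (mm10) and promoter windows from RefSeq (GRCm38.p6), with 9 and 8 of the 9 members matched (not S100a10 in RefSeq's table).

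All S100 genes are named. Of each list, up to 4 genes called higher and 4 lower between fractions are named, with Anxa2, Ahnak, Ager and Cacybp, and the 5 genes with the highest Pearson r of log2(CPM + 1) to S100b and to S100a6. As reference levels in HA, the group means in SCI only, hydrogel CT and growth factors were 164.5, 495.7 and 365.5 CPM for Aqp4, 98.3, 33.9 and 28.3 for Lyz2, and 0.937, 4.01 and 2.39 for Col1a1. Another reference gene and another loop sequence are not reported here.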

Additional observations from a re-analysis of the deposited data

Results flagged for a closer look

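In 3 of 24 groups of 4 or 5 libraries, 1 library stood apart from the rest of its group. Chance gives about 1.20 of 24 where values are continuous, but 2 of the 3 rest on a single count, so that expectation does not apply to them. S100a10 in FT with hydrogel CT was at 5.91 CPM in library 1724, from 1 count, while the other 3 had none. S100a6 in FT with hydrogel CT was at 26.7 CPM in library 1683, again from 1 count, with the others between 5.91 and 7.62 from 1 or 2 counts in larger libraries. S100a3 in HA of SCI only was at 0.964 CPM in library 9843, from 5 counts, with the others between 0 and 0.150.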

How the results depend on the processing

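Between HA and FT, the count of 4 called members stayed at 4 under 21 of 23 alternatives. Those chosen after seeing the data were TMMwsp scaling, the median gene at 0, the number series apart and 2 other filters. The filter by the 6 groups tested 4747 genes and called 910, the filter by the design tested 4571 and called 867, and the adopted filter by fraction tested 3295 and called 678, with 4 of 5 members called by each. The adopted filter gave the smallest differences of the 3 (S100b 1.38 against 1.61 and 1.64). With the title number as a replicate block 4 members were called, S100b at 1.44 (adjusted p = 0.00676), S100a6 at 4.10, and S100a10 at 1.11. The study description takes precipitate and flow-through from the same tissue, while the main fit had no block. Same-numbered libraries correlated at 0.00656 to 0.121, above 0.1 in 2 of 10 pairs. Many FT libraries are shallow, so low correlations cannot show that the numbers do not pair the libraries. The fit with the block is therefore given beside the main one. Within fractions no paired analysis was possible because the groups share no numbers. With the SCI only numbers alone the count fell to 1 (S100b 0.89, adjusted p = 0.0671), and without them to 2. Both settings use fewer samples. Under DESeq2 the count rose to 2 in SCI only (S100a11 2.50, adjusted p = 0.0203; 11.5% of all genes called) and to 1 for growth factors against hydrogel CT in HA (S100a3). Leaving out 1 number gave 0 to 1 members with hydrogel CT, and fitting only 2 groups gave 1 for hydrogel CT against SCI only in FT (S100a6; 13.8% of all genes called). With the median gene at 0 within each treatment, a setting also chosen after seeing the data, the counts stayed at 1, 1 and 3. The cause was not tested. Counts over all genes ran from 364 to 916 between fractions and 2 to 715 for growth factors against SCI only in HA. No called member reversed. Some uncalled values changed sign, S100a11 for hydrogel CT against SCI only in HA under 7 of 14 alternatives. FT depth limits all 5 members, S100b in the hydrogel libraries included.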
